A study of Homo sapiens with 16 samples.

Results

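Inhibitors of BRAF or MEK were taken away from a pair of drug-resistant human melanoma lines, and the results below concern how far their responses differed at 24 h, the only time off drug read in both. The first group was A375 at 24 h, made of the resistant derivative DR A375 (2 libraries), kept before withdrawal on dabrafenib (0.5 µM) with trametinib (0.05 µM). It was set against A375 still on both drugs (2 libraries). The second group was 451Lu at 24 h, made of the resistant derivative 451Lu BR (2 libraries), which had been held on dabrafenib (1 µM). It was set against 451Lu still on drug (2 libraries). These 8 libraries were taken from 16 in all, by their labels alone. The other 8 came from A375 at 6 h and 48 h off drug and from 451Lu at 72 h and 120 h off drug. Off drug, the vehicle DMSO took the place of the inhibitors. The quantity tested for each gene was the log2 change at 24 h in A375 minus the log2 change at 24 h in 451Lu, called the line difference here. A positive value means that the change was higher in A375.

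Dabrafenib inhibits mutant BRAF and trametinib inhibits MEK, the kinases that pass growth signals from RAS to ERK. Active ERK switches on immediate-early transcription factors within minutes, then feedback genes such as the DUSP phosphatases and the Sprouty proteins, which dampen the same cascade. Resistant melanoma cells often carry more signal through the pathway than they tolerate once the inhibitor is gone, a state known as drug addiction. Melanoma cells also move along an axis between a pigmented, MITF-driven state and a less pigmented, invasive state.

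Each line came off its own regimen, so line and regimen cannot be told apart in the line difference. The labels also describe the 451Lu cells in 2 ways, as treated with dabrafenib alone and as resistant to dabrafenib and trametinib. The labels name no separate cultures, so p-values measure the spread between these libraries, which may be technical. A line had a single on-drug group, which means that culture time and withdrawal time cannot be told apart. In bulk RNA, fewer cells of a kind and less RNA per cell cannot be told apart either.

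The 8 libraries held 11659143 to 16691725 counts. Mitochondrial transcripts took 3.56 to 3.70% of counts in A375 at 24 h and 4.81 to 5.53% in A375 on drug, and 3.97 to 4.03% in 451Lu at 24 h against 5.51 to 6.11% in 451Lu on drug. This share was lower off drug in both lines, and its part in the results was not tested. Of 16 markers of other cell types, 12 were in the table. Their summed level was 49.9 to 50.4 CPM (counts scaled to a common library total) in A375 at 24 h, 44.8 to 45.8 CPM in A375 on drug, 95.7 to 101.8 CPM in 451Lu at 24 h and 162.2 to 175.2 CPM in 451Lu on drug. ALB and KRT19 were at 0 in all 4 groups. The sum in 451Lu was made mostly of the matrix protein gene LUM (24.9 and 29.9 CPM at 24 h, 153 and 138 CPM on drug) and KRT18. All 10 defining melanoma markers had counts in every group, which is a low bar. TYRP1 met it in A375 at 24 h with 5 and 0 counts. The 10 markers summed to 4145 to 4261 CPM in A375 at 24 h and 5591 to 5723 CPM in A375 on drug. In 451Lu they summed to 2691 to 2803 CPM at 24 h and 11990 to 12620 CPM on drug. Cell identity itself was not tested.

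Of 15481 genes tested, 7642 had a line difference past the threshold (49.4%; edgeR quasi-likelihood test, Benjamini-Hochberg adjusted p under 0.05). The change was higher in A375 for 4240 genes (27.4%) and lower in A375 for 3402 (22.0%). Called differences of at least 1 log2 unit numbered 1230 higher in A375 (7.95%) and 1383 lower (8.93%). Tested against a 1.5-fold difference, 2722 genes passed (17.6%), 1442 higher in A375 (9.31%) and 1280 lower (8.27%). The 24 h change itself was called for 10299 genes in A375 (66.5%), of which 5380 rose (34.8%) and 4919 fell (31.8%). In 451Lu it was called for 7897 genes (51.0%), of which 3985 rose (25.7%) and 3912 fell (25.3%). The median absolute change was 0.51 log2 units in A375 and 0.35 in 451Lu. The median absolute line difference was 0.53, and the signed median was 0.02.

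Opposite calls in the lines made up a minority of the called differences. Of all genes tested, 858 rose in A375 and fell in 451Lu with a called line difference (5.54%), and 625 fell in A375 and rose in 451Lu (4.04%). Differences of degree were also common: 833 genes rose in both lines and more in A375 (5.38%), and 407 rose in both and more in 451Lu (2.63%). Another 450 fell in both and further in A375 (2.91%), and 409 fell in both and further in 451Lu (2.64%). A further 1333 genes rose in A375 with no call in 451Lu (8.61%), and 1292 fell in A375 with no call in 451Lu (8.35%). Conversely 572 genes rose in 451Lu (3.69%) and 750 fell there (4.84%) with no call in A375. For 113 genes the line difference was called although neither line's change was (0.730%). No line difference was called for 1175 genes that rose in both lines (7.59%), for 1051 that fell in both (6.79%) and for 5613 others (36.3%). Across genes the 2 sets of changes had a Pearson correlation of 0.40 and a Spearman correlation of 0.35, given as a description over 15481 genes that share libraries. Genes that rose in both lines numbered 2415, which is 44.9% of those that rose in A375 and 60.6% of those that rose in 451Lu. Genes that fell in both numbered 1910, or 38.8% of the falls in A375 and 48.8% of the falls in 451Lu.

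**Figure D1:**
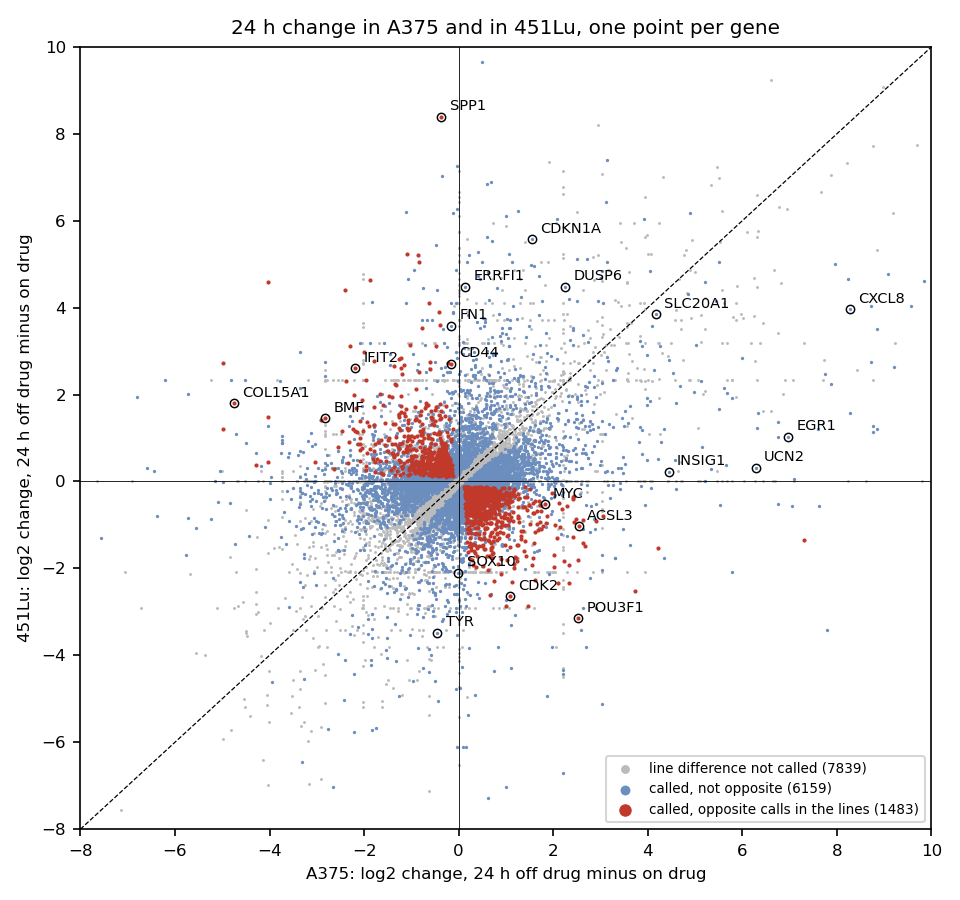
Log2 change at 24 h in A375 (horizontal axis) and in 451Lu (vertical axis) for 15481 genes, 11 of which lie outside the axes; the dashed line marks equal change, red points are the 1483 genes called in opposite directions and blue points the other 6159 called line differences. Gene names mark examples: EGR1 and CXCL8 lie to the right of the line, SPP1 and CDKN1A above it, and SLC20A1 close to it.

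Gene lists chosen for melanoma cells released from MAPK inhibition held 620 tested entries out of 647. Every list count below is to be read beside the shares of all genes tested, 27.4% higher in A375 and 22.0% lower. The median line difference over all genes was 0.02. Lists whose called members were mostly higher in A375 included cholesterol synthesis, ER chaperones, MHC class I presentation and nuclear respiratory chain genes. Lists whose called members were mostly lower in A375 included invasive and mesenchymal genes and the genes of the RAS, RAF, MEK and ERK cascade. Where a member is given values below without being the leading member of its list, it was chosen after its values were seen.

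**Figure D2:**
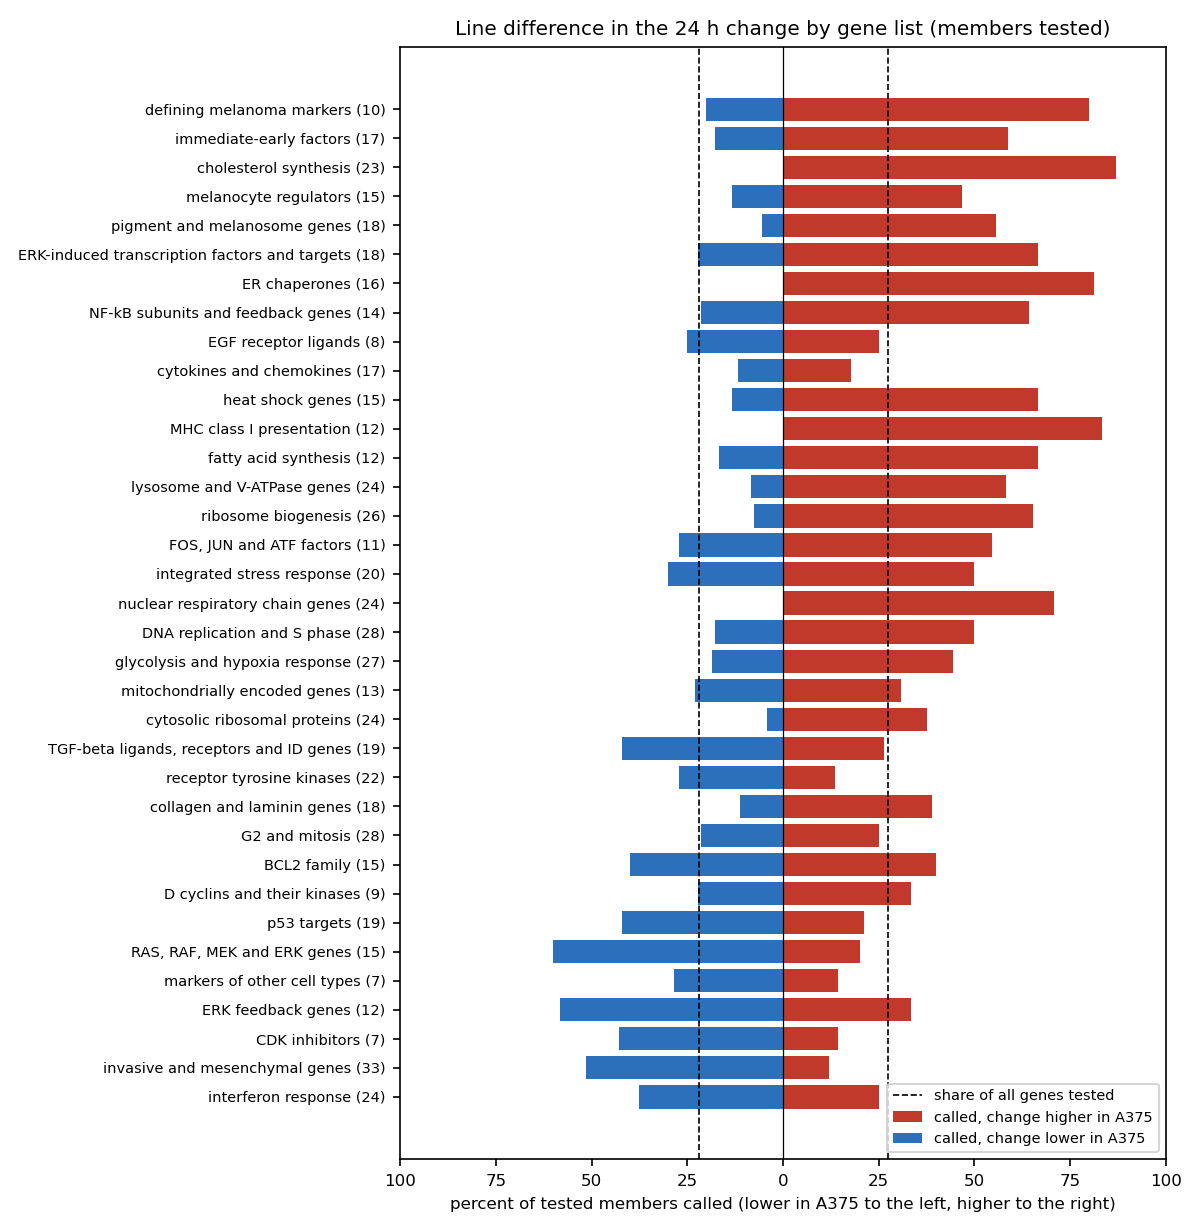
Percent of tested members of each gene list with a called line difference, higher in A375 (red, to the right) or lower in A375 (blue, to the left), ordered by the list's median line difference; dashed lines mark the shares among all genes tested, 27.4% higher and 22.0% lower. The bars of cholesterol synthesis, ER chaperones, MHC class I presentation and nuclear respiratory chain genes have no blue part.

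Most feedback genes of the ERK pathway rose in both lines, by amounts that differed gene by gene. Of 12 tested, 8 rose and 2 fell in A375, and 11 rose and 0 fell in 451Lu. The line difference was called in 11: the change was higher in A375 for 4 and lower for 7, with a median of -0.62 against 0.02 over all genes. DUSP6, a phosphatase that inactivates ERK, had 128 and 136 CPM in A375 at 24 h against 27.3 and 28.3 CPM on drug, and 554 and 458 CPM in 451Lu at 24 h against 24.2 and 21.2 CPM on drug. The lines started from similar levels and DUSP6 ended higher in 451Lu, with a 4.75-fold rise in A375 and a 22.4-fold rise in 451Lu. Its line difference was -2.24 ± 0.12 (SE; edgeR adjusted p = 3.4e-14).

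ERRFI1, an inhibitor of the EGF receptor, differed most within this list. It had 38.1 and 36.0 CPM in A375 at 24 h against 33.6 and 34.2 CPM on drug, and 452 and 387 CPM in 451Lu at 24 h against 18.8 CPM in both on-drug libraries. The change in A375 was not called (log2 0.13, edgeR adjusted p = 0.15) and the rise in 451Lu was 22.4-fold. The line difference was -4.35 ± 0.11 (edgeR adjusted p = 1.6e-20). SPRY1 went the same way (-1.05 ± 0.19). The Sprouty gene SPRY4 rose to a like degree, 4.97-fold in A375 and 3.91-fold in 451Lu, and its small line difference was still called (0.35 ± 0.08). DUSP5 (1.89 ± 0.17) and DUSP4 (0.61 ± 0.08), both nuclear ERK phosphatases, rose more in A375.

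The genes of the cascade itself leaned the other way from most lists. Of 15 tested, the change was higher in A375 for 3 and lower for 9, with a median of -0.27. Without A375 replicate 2 on drug, 5 were lower. The leading members were RASA1, a GTPase-activating protein for RAS, at -0.96 ± 0.09, and MRAS, a RAS-related GTPase, at 0.86 ± 0.10. RASA1 overlaps CCNH on the opposite strand, which had 112% of its counts. MAPK3, which encodes ERK1, had 47.9 and 46.5 CPM in A375 at 24 h against 41.5 and 43.8 CPM on drug, and 42.2 and 43.6 CPM in 451Lu at 24 h against 59.8 and 58.5 CPM on drug. The change in A375 was not called (log2 0.15, edgeR adjusted p = 0.089), MAPK3 fell 1.38-fold in 451Lu, and the line difference was 0.61 ± 0.11 (edgeR adjusted p = 3.4e-05).

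Transcription factors of the immediate-early class, which respond to growth signals without new protein synthesis, rose further in A375. Among 17 tested, 16 rose and 1 fell in A375, and 12 rose and 3 fell in 451Lu. Line differences were called higher in A375 for 10 and lower for 3, with a median of 1.10. EGR1 had 706 and 654 CPM in A375 at 24 h against 5.36 and 5.51 CPM on drug, and 181 and 162 CPM in 451Lu at 24 h against 80.4 and 87.1 CPM on drug. The on-drug level in 451Lu was thus already above that of A375, and the rise was 125-fold in A375 and 2.05-fold in 451Lu. The line difference of EGR1 was 5.93 ± 0.13 (edgeR adjusted p = 4.2e-22).

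NR4A1, an orphan nuclear receptor, had 415 and 367 CPM in A375 at 24 h against 16.7 and 15.5 CPM on drug, and 28.9 and 27.5 CPM in 451Lu at 24 h against 32.2 and 32.0 CPM on drug. It rose in A375, while its change in 451Lu was not called (log2 -0.18, edgeR adjusted p = 0.20), and the line difference was 4.79 ± 0.16. NR4A2 (3.45 ± 0.16) and NR4A3 (2.80 ± 0.17) had the same sign. KLF6 was the leading member in the other direction at -1.25 ± 0.08. ARC, an activity-regulated gene best known from neurons, had 39.1 and 33.9 CPM in A375 at 24 h and 0 counts on drug, and 5.03 and 3.35 CPM in 451Lu at 24 h against 1.09 and 1.10 CPM on drug. Against a floor of 3 counts over the group it was at least 414-fold higher in A375 at 24 h than on drug, and the fitted line difference was 9.94 ± 1.16 (edgeR adjusted p = 1.1e-07).

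FOS and JUN family genes, whose proteins pair to form the factor AP-1, were split by member. Among 11 tested the change was higher in A375 for 6 and lower for 3 (median 0.38). JUNB had 130 and 114 CPM in A375 at 24 h against 13.8 and 13.1 CPM on drug, and 102 and 86.2 CPM in 451Lu at 24 h against 34.9 and 40.5 CPM on drug, a line difference of 1.86 ± 0.16 (edgeR adjusted p = 5.9e-10). JUN had 39.5 and 35.7 CPM in A375 at 24 h against 45.7 and 44.2 CPM on drug, and 17.2 and 15 CPM in 451Lu at 24 h against 7.76 and 7.03 CPM on drug. JUN therefore fell in A375 and rose in 451Lu, with a line difference of -1.39 ± 0.16 (edgeR adjusted p = 9.1e-08). FOSL1, which encodes FRA1, rose 8.90-fold in A375 and 6.82-fold in 451Lu. Its line difference of 0.38 ± 0.13 (edgeR adjusted p = 0.020) was not called without A375 replicate 1 at 24 h (0.27), without A375 replicate 1 on drug (0.29) or without 451Lu replicate 2 at 24 h (0.27).

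Other targets induced by ERK followed the immediate-early factors. Of 18 tested, the change was higher in A375 for 12 and lower for 4 (median 1.03). EMP1, a membrane protein, had 272 and 261 CPM in A375 at 24 h against 7.51 and 7.43 CPM on drug, and 1156 and 1067 CPM in 451Lu at 24 h against 633 and 649 CPM on drug. The rise was 35.6-fold in A375 and 1.73-fold in 451Lu, which had the higher level in both states. The line difference was 4.36 ± 0.09 (edgeR adjusted p = 4.2e-22). VGF, a secreted neuropeptide precursor, rose in both lines and by 4.70 ± 0.14 log2 units more in A375. MYC, a growth-promoting transcription factor, had 321 and 291 CPM in A375 at 24 h against 89.1 and 84.5 CPM on drug, and 128 and 122 CPM in 451Lu at 24 h against 173 and 183 CPM on drug. MYC rose in A375 and fell in 451Lu, with a line difference of 2.33 ± 0.09 (edgeR adjusted p = 3.9e-17). ETV1, an ETS factor, was the leading member in the other direction (-1.86 ± 0.11).

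Inflammatory cytokines are among the genes switched on by AP-1 and NF-kB. Of 23 cytokine and chemokine genes, 17 were tested: 11 rose and 0 fell in A375, and 12 rose and 0 fell in 451Lu. The line difference was called for 5 of them, higher in A375 for 3 and lower for 2 (median 0.50). CXCL8, which encodes the neutrophil attractant interleukin 8, had 1055 and 973 CPM in A375 at 24 h against 3.32 and 3.20 CPM on drug, and 126 and 110 CPM in 451Lu at 24 h against 8.38 and 6.85 CPM on drug. The rise was 310-fold in A375 and 15.7-fold in 451Lu, and the line difference was 4.31 ± 0.38 (edgeR adjusted p = 6.1e-10).

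IL11, a cytokine of the interleukin 6 family, had 292 and 276 CPM in A375 at 24 h and 0 counts on drug, and 16.2 and 13 CPM in 451Lu at 24 h against 0.409 and 0.174 CPM on drug. In A375 it was at least 3205-fold higher at 24 h, against the floor of 3 counts over the group. The fitted line difference was 9.19 ± 1.24 (edgeR adjusted p = 9.9e-07). LIF, of the same family, had 1984 and 1915 CPM in A375 at 24 h against 4.64 and 4.29 CPM on drug, and 691 and 452 CPM in 451Lu at 24 h against 2.52 and 2.84 CPM on drug. LIF rose in both lines and its line difference was not called (1.04, 95% interval 0.13 to 1.94, edgeR adjusted p = 0.053), although DESeq2 called it (1.02, adjusted p = 0.018). CSF1, the growth factor of macrophages, rose more in 451Lu (-2.06 ± 0.57).

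Genes of NF-kB and its feedback loop differed in the same direction as CXCL8 for the most part. Of 14 tested, the change was higher in A375 for 9 and lower for 3 (median 0.68). TRAF1, an adaptor of TNF receptors, had 58.8 and 58.5 CPM in A375 at 24 h against 0.111 and 0.064 CPM on drug, and 10.3 and 10.7 CPM in 451Lu at 24 h against 1.77 and 1.63 CPM on drug. The A375 on-drug value rests on 3 counts, so its ratio of 659 has a 95% counting interval of 225 to 3200. The line difference was 6.59 ± 0.44 (edgeR adjusted p = 3.4e-12). TNFAIP3, which encodes the NF-kB inhibitor A20, differed by 3.14 ± 0.16. RELA, the p65 subunit, led the other direction at -0.44 ± 0.10.

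Among 8 tested ligands of the EGF receptor family, AREG stood alone in size. The change was called higher in A375 for 2 and lower for 2, with 4 not called. Limma-voom called 1 higher, and leaving out single libraries also lowered this count in several cases. AREG, which encodes amphiregulin, had 712 and 700 CPM in A375 at 24 h against 0.221 and 0.128 CPM on drug, and 0.072 and 0.257 CPM in 451Lu at 24 h against 0.341 and 0.058 CPM on drug. It rose in A375 and stayed at 1 to 5 counts a library in 451Lu. The line difference (12.13 ± 1.63, edgeR adjusted p = 7.6e-07) therefore rests on very few counts in 451Lu. NRG2, a neuregulin, differed the other way (-1.40 ± 0.24). HBEGF rose in both lines, with a line difference of 0.49 ± 0.18.

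The promoter windows of IL11, CXCL8 and AREG are shown because these 3 secreted factors carry some of the largest differences, and because factors of the AP-1 and CREB families have known binding sequences. Windows run from 250 bases before to 50 after an annotated start and come from RefSeq on GRCh38.p14, on the gene's strand. The AP-1 sequence searched was TGANTCA and the CRE sequence was TGACGTCA, each on both strands, and neither contains the other. Capitals mark the match, AP-1 in IL11 (chr19:55370414-55370713, minus strand) and CXCL8 (chr4:73740319-73740618, plus strand) and CRE in AREG (chr4:74444886-74445185, plus strand).
IL11: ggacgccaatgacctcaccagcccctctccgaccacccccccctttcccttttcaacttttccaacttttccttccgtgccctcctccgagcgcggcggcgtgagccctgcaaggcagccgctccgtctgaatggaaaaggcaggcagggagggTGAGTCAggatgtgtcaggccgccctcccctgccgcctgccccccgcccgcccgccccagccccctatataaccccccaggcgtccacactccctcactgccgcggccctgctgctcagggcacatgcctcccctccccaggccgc
CXCL8: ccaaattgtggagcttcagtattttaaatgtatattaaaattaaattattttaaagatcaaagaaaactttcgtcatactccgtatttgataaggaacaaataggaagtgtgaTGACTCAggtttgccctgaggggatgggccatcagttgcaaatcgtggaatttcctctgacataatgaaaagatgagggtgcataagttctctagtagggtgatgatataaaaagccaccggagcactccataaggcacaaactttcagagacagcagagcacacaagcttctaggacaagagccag
AREG: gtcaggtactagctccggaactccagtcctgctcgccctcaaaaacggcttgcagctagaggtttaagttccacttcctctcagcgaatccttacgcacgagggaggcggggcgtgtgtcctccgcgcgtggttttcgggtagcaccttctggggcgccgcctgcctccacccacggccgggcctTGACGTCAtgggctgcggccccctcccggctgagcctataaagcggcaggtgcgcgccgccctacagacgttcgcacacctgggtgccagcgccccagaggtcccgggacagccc
TGANTCA occurred in 4 of 15 windows of cytokine genes (26.7%), against 7.71% of 35116 windows in the table. These windows belong to 12 genes, of which 3 had a match, IL11 and CXCL8 among them. TGACGTCA occurred in 1.85% of all windows. A match is a description of letters and not of binding.

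**Figure D3:**
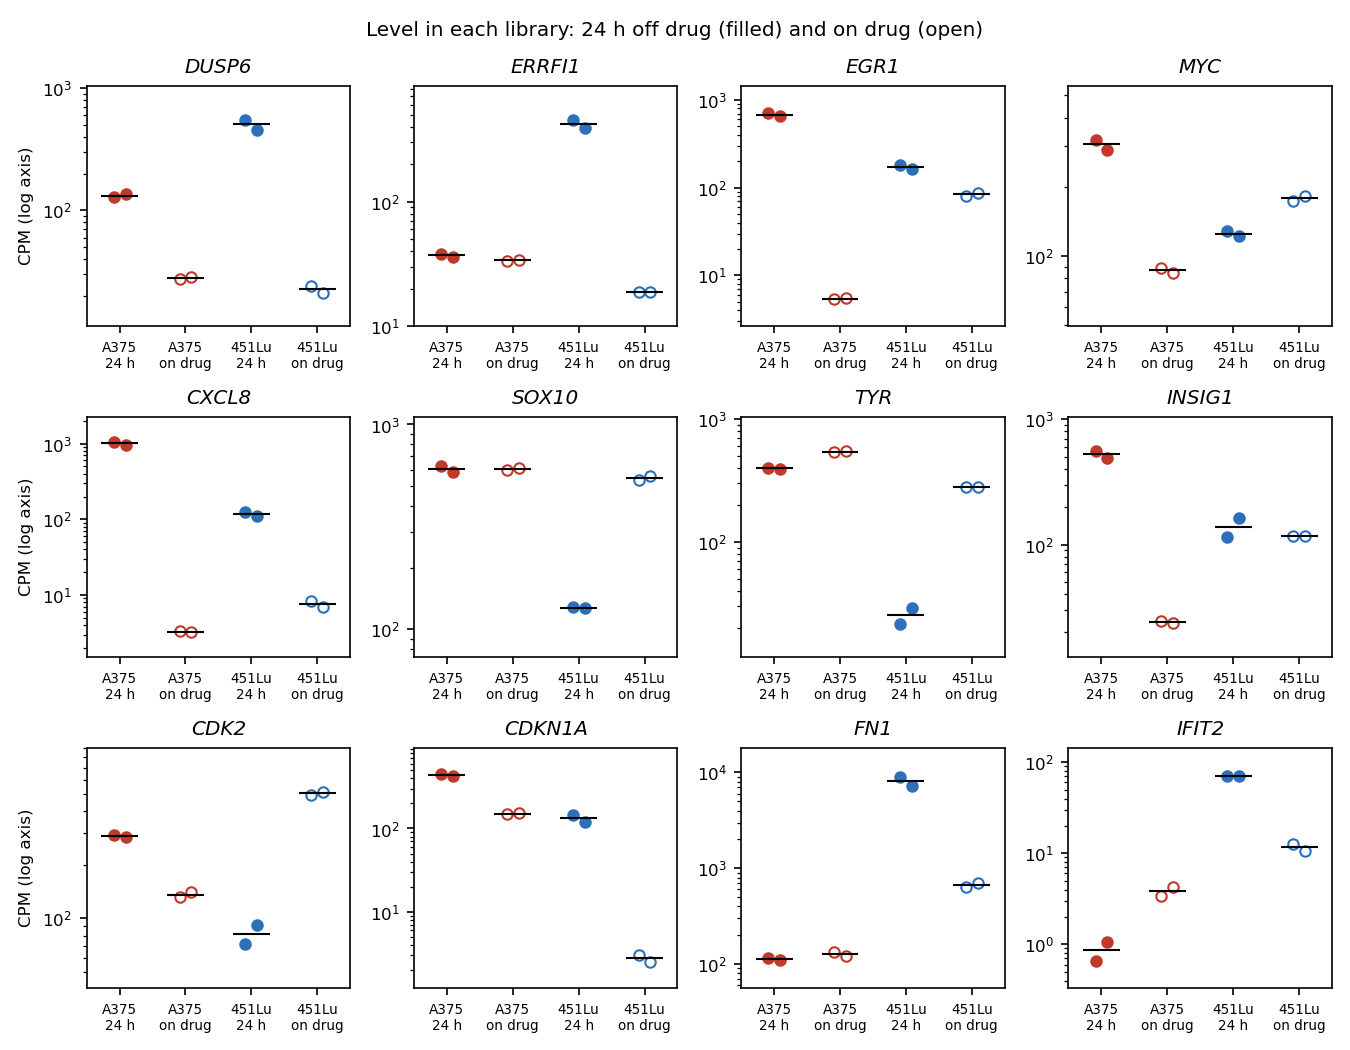
Level of 12 genes in each library in CPM on a log axis, with filled symbols at 24 h off drug, open symbols on drug, A375 in red and 451Lu in blue; horizontal bars are means of 2 libraries. EGR1, CXCL8 and INSIG1 show the larger step in A375, while DUSP6, ERRFI1, CDKN1A and FN1 show it in 451Lu, and SOX10, MYC, CDK2 and IFIT2 differ in kind between the lines.

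Most pigment genes fell, and where the lines differed the fall was mostly further in 451Lu. Of 18 tested pigment and melanosome genes, 1 rose and 12 fell in A375, and 0 rose and 18 fell in 451Lu. Called differences were higher in A375 for 10 and lower for 1, with 7 not called (median 1.05). Without 451Lu replicate 1 at 24 h, 3 were lower, and without A375 replicate 2 at 24 h, 2 were. DCT, an enzyme of melanin synthesis, had 616 and 657 CPM in A375 at 24 h against 2921 and 3007 CPM on drug, and 5.10 and 7.72 CPM in 451Lu at 24 h against 130 and 144 CPM on drug. The fall was 4.66-fold in A375 and 21.7-fold in 451Lu, and the line difference was 2.22 ± 0.14 (edgeR adjusted p = 1.2e-12). TYR, which encodes tyrosinase, had 402 and 397 CPM in A375 at 24 h against 537 and 554 CPM on drug, and 21.7 and 29.2 CPM in 451Lu at 24 h against 281 CPM in both on-drug libraries, a line difference of 3.03 ± 0.16. RAB38, a GTPase of melanosome transport, had the smallest p in the list (1.64 ± 0.08, edgeR adjusted p = 4.4e-15).

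TYRP1, another melanin enzyme, was the 1 member lower in A375. It had 0.302 and 0 CPM in A375 at 24 h against 9.39 and 10.6 CPM on drug, and 0.431 and 0.601 CPM in 451Lu at 24 h against 1.57 and 1.74 CPM on drug. It was nearly lost in A375, and the line difference was -4.08 ± 0.88 (edgeR adjusted p = 4.0e-04). TYRP1 overlaps LURAP1L-AS1 on the opposite strand, which had 33.7% of its counts. MLANA, a melanosome antigen, fell to a like degree, 3.75-fold in A375 and 4.90-fold in 451Lu (0.38 ± 0.10). GPNMB and SLC24A5 fell in both lines, and their line differences were not called (-0.01 with a 95% interval of -0.14 to 0.12, and -0.15 with an interval of -0.57 to 0.27).

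The regulators above these enzymes separated the lines in an uneven way. MITF, the master regulator of pigment genes, had 107 and 118 CPM in A375 at 24 h against 388 and 379 CPM on drug, and 141 and 155 CPM in 451Lu at 24 h against 622 and 613 CPM on drug. MITF fell 3.42-fold in A375 and 4.18-fold in 451Lu, so that its line difference was small (0.29 ± 0.09, edgeR adjusted p = 6.2e-03). It was not called without A375 replicate 2 at 24 h (0.22) or without 451Lu replicate 1 at 24 h (0.21). SOX10, a neural crest factor that drives MITF expression, had 628 and 584 CPM in A375 at 24 h against 601 and 615 CPM on drug, and 129 and 127 CPM in 451Lu at 24 h against 534 and 558 CPM on drug. SOX10 was flat in A375 (log2 change -0.01, edgeR adjusted p = 0.95) and fell 4.28-fold in 451Lu, a line difference of 2.09 ± 0.08 (edgeR adjusted p = 1.0e-16). Of 15 tested regulators the change was higher in A375 for 7 and lower for 2. TFE3, a relative of MITF, led the lower side (-1.14 ± 0.12), while EDNRB, the endothelin receptor of melanocytes, differed by 1.51 ± 0.11.

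Melanoma markers at the cell surface and in the cytoplasm differed as well. MCAM, an adhesion molecule, had 1416 and 1373 CPM in A375 at 24 h against 464 and 472 CPM on drug, and 190 and 205 CPM in 451Lu at 24 h against 656 and 693 CPM on drug. MCAM rose in A375 and fell in 451Lu, a line difference of 3.35 ± 0.08. S100A1, a calcium-binding protein, rose 10.7-fold in A375 and had no called change in 451Lu (3.46 ± 0.09, edgeR adjusted p = 1.0e-20). S100B fell in both lines, further in A375 (-0.95 ± 0.15). Some exons of MCAM and S100A1 overlap genes on the opposite strand (CBL with 23.9% and S100A13 with 24.9% of their counts), and the sources used here do not say whether the counting used strand.

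The promoter windows of DCT, TYR and TYRP1 are shown because these 3 melanin enzymes fell by such different amounts beside a similar fall of MITF. MITF binds the hexamer CATGTG, searched here on both strands. It is in capitals in each of the windows, which lie at chr13:94479633-94479932 (minus strand), chr11:89177625-89177924 (plus strand) and chr9:12693135-12693434 (plus strand), from RefSeq on GRCh38.p14.
DCT: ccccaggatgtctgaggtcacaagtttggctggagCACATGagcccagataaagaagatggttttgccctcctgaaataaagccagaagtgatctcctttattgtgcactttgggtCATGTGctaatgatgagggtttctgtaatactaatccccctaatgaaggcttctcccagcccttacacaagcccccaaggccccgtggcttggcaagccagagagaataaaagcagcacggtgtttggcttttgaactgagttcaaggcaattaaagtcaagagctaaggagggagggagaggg
TYR: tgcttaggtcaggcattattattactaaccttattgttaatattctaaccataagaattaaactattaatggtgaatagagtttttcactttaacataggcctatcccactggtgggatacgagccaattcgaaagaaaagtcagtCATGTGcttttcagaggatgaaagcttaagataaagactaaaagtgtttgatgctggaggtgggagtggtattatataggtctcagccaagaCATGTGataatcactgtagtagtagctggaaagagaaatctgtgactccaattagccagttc
TYRP1: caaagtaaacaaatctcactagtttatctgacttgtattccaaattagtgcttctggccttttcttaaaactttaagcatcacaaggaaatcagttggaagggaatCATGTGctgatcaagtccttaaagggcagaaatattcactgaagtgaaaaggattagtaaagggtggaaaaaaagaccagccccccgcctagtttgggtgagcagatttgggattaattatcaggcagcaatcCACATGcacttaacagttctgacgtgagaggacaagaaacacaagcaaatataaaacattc
The window of TYR, that of TYRP1 and the one shown of 2 for DCT each hold 2 matches, although TYR and DCT fell further in 451Lu and TYRP1 in A375. Over the list, 10 of 23 windows held CATGTG (43.5%), against 11.1% of all 35116 windows. These windows belong to 14 genes, of which 9 had a match in at least 1 window.

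Among invasive and mesenchymal genes, the other end of the melanoma axis, called line differences were mostly lower in A375. Of 35 listed genes, 33 were tested: 18 rose and 11 fell in A375, and 25 rose and 4 fell in 451Lu. Called differences were lower in A375 for 17 and higher for 4, with 12 not called and a median of -0.80. Members called in opposite directions numbered 8, and of these 1 rose in A375. Of all genes tested, 5.54% rose in A375 and fell in 451Lu with a called line difference, and 4.04% did the reverse. FN1, which encodes the matrix protein fibronectin, had 115 and 111 CPM in A375 at 24 h against 132 and 120 CPM on drug, and 9028 and 7206 CPM in 451Lu at 24 h against 644 and 707 CPM on drug. No change in FN1 was called in A375, and it rose 12-fold in 451Lu (line difference -3.75 ± 0.12, edgeR adjusted p = 2.0e-18).

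SPP1, which encodes the secreted matrix protein osteopontin, had 24.7 and 26.4 CPM in A375 at 24 h against 33.2 and 32.2 CPM on drug, and 301 and 233 CPM in 451Lu at 24 h against 0.817 and 0.755 CPM on drug. It fell slightly in A375 and rose 337-fold in 451Lu, the most negative line difference by the naming rule (-8.76 ± 0.28, edgeR adjusted p = 8.9e-19). CD44, a hyaluronan receptor, had 919 and 904 CPM in A375 at 24 h against 1045 and 1008 CPM on drug, and 1287 and 1184 CPM in 451Lu at 24 h against 186 and 191 CPM on drug (-2.89 ± 0.07). The lines met at a similar CD44 level at 24 h from on-drug levels that were far apart.

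Further members on this side were N-cadherin, encoded by CDH2 (-3.99 ± 0.45), the YAP target CTGF (-3.83 ± 0.19), the transcription factor ZEB2 (-2.64 ± 0.08) and the matrix protein TNC (-1.87 ± 0.10). PLAT, tissue plasminogen activator, had 691 and 633 CPM in A375 at 24 h against 292 and 290 CPM on drug, and 76.6 and 80.0 CPM in 451Lu at 24 h against 269 and 256 CPM on drug. PLAT rose in A375 and fell in 451Lu (2.93 ± 0.08, edgeR adjusted p = 1.7e-20). It had the smallest p among members higher in A375, and CD44 had the smallest p of the whole list. SNAI2, a transcription factor of the same state, fell in both lines, and further in A375 (-1.32 ± 0.08). AXL, a receptor kinase often used as a marker of the invasive state, had 19.9 and 20.2 CPM in A375 at 24 h against 0.111 and 0.577 CPM on drug, and 5.25 and 3.52 CPM in 451Lu at 24 h against 0.204 and 0.174 CPM on drug. AXL rose in both, and its line difference was not called (1.40, 95% interval -0.51 to 3.31). Without A375 replicate 2 on drug it was called (2.89).

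The TGF-beta receptor gene TGFBR1 had 19.4 and 19.3 CPM in A375 at 24 h against 47.9 and 42.2 CPM on drug, and 306 and 308 CPM in 451Lu at 24 h against 91.0 and 93.0 CPM on drug. It fell in A375 and rose in 451Lu (-2.96 ± 0.12, edgeR adjusted p = 7.8e-17). ID4, an inhibitor of helix-loop-helix factors, did the reverse (3.70 ± 0.16). Among 19 tested genes of this family the change was higher in A375 for 5 and lower for 8, and without 451Lu replicate 1 on drug 3 were higher. Among 18 collagens and laminins it was higher in A375 for 7 and lower for 2, led by the laminin chains LAMA4 (2.09 ± 0.10) and LAMB1 (-1.32 ± 0.07). LAMB1 overlaps DLD on the opposite strand, which had 35.8% of its counts. For both lists the shares among all genes were 27.4% higher and 22.0% lower.

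Of 22 receptor tyrosine kinases tested, the change was higher in A375 for 3 and lower for 6, against 27.4% and 22.0% of all genes. Without 451Lu replicate 2 at 24 h, 5 were higher. MET, the receptor of hepatocyte growth factor, had 212 and 217 CPM in A375 at 24 h against 136 and 132 CPM on drug, and 109 and 117 CPM in 451Lu at 24 h against 255 and 262 CPM on drug (1.87 ± 0.08, edgeR adjusted p = 1.3e-16). MET thus rose in A375 and fell in 451Lu. DDR2, a collagen receptor, fell 3.41-fold in A375 and rose 1.17-fold in 451Lu (-1.99 ± 0.09).

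**Figure D4:**
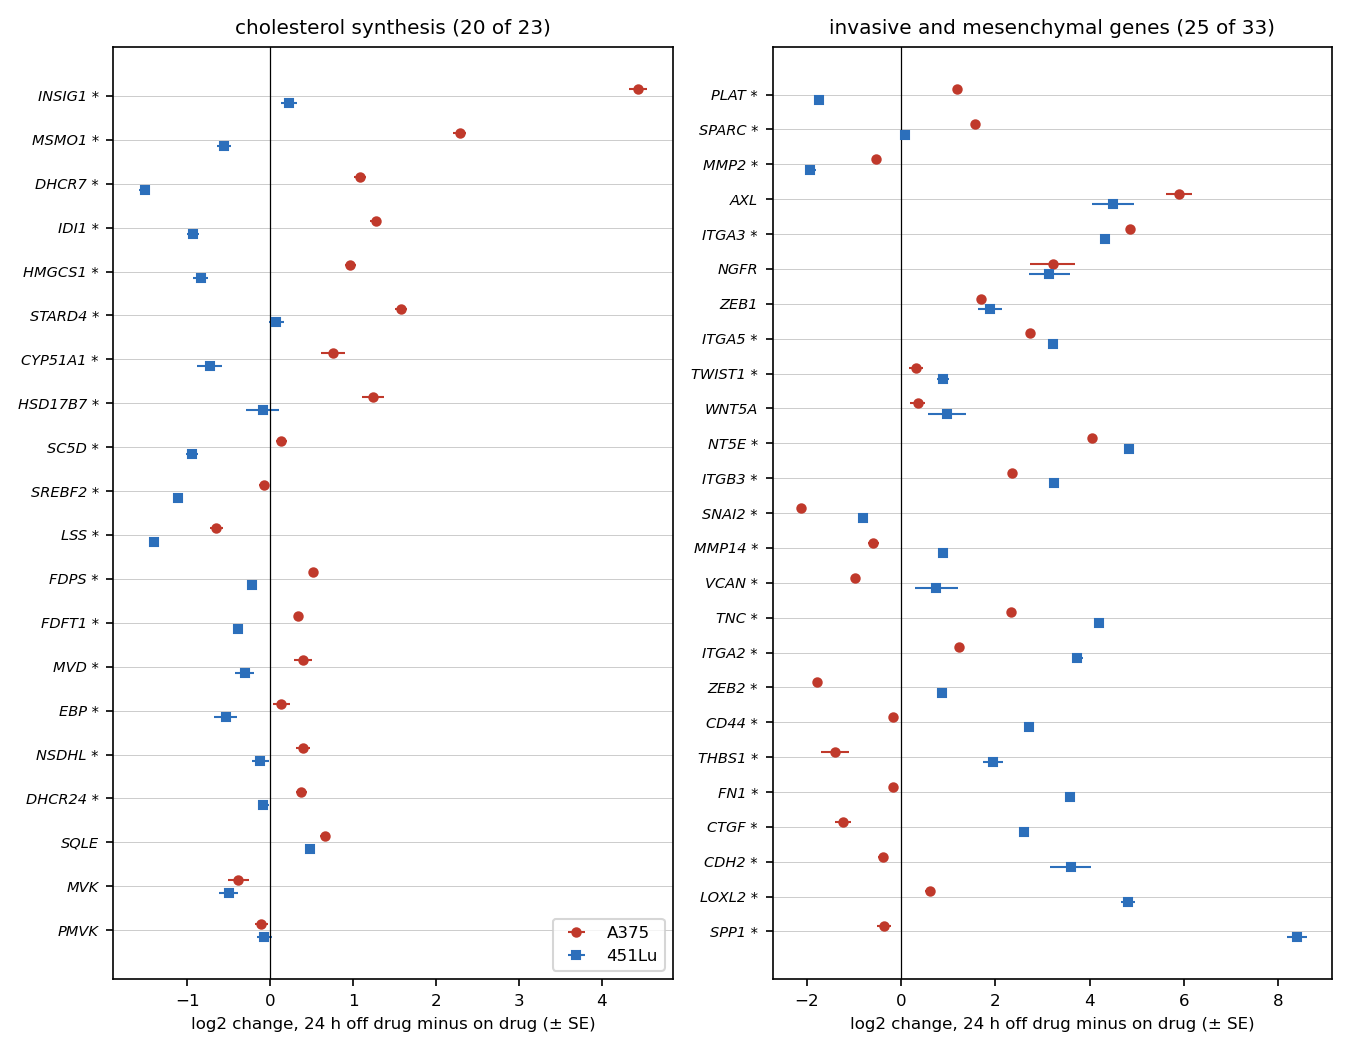
Log2 change at 24 h off drug (± SE of the fit) in A375 (red circles) and 451Lu (blue squares) for members of the cholesterol synthesis list (20 of 23 tested) and the invasive and mesenchymal list (25 of 33 tested), leaving out members whose SE reached 1 and some members not reported here; a star marks a called line difference. On the left most red circles lie right of 0 and most blue squares left of it, and on the right the blue squares of SPP1, LOXL2, FN1 and CD44 lie far to the right of their red circles. LOXL2 shares exon positions with ENTPD4 on the same strand.

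Genes of cholesterol synthesis gave the clearest division by list. The pathway builds sterols from acetyl-CoA and is switched on by SREBP2 when sterols are low. Of 23 tested, 16 rose and 2 fell in A375, and 2 rose and 15 fell in 451Lu. By line difference, 20 were higher and 0 lower in A375, with a median of 1.08. Members that rose in A375 and fell in 451Lu with a called line difference numbered 9, or 39.1%, against 5.54% of all genes tested.

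INSIG1, a sterol sensor that restrains SREBP2, had 556 and 492 CPM in A375 at 24 h against 24.7 and 23.6 CPM on drug, and 114 and 162 CPM in 451Lu at 24 h against 118 and 117 CPM on drug. It rose 21.7-fold in A375, its change in 451Lu was not called (log2 0.23, edgeR adjusted p = 0.050), and the line difference was 4.21 ± 0.14 (edgeR adjusted p = 4.6e-18). DHCR7, the last enzyme of the route, had 149 and 128 CPM in A375 at 24 h against 64.4 and 66.5 CPM on drug, and 101 and 105 CPM in 451Lu at 24 h against 297 and 291 CPM on drug (2.60 ± 0.10).

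Fatty acid genes leaned the same way, with 8 of 12 higher and 2 lower in A375 (median 0.42). ACSL3, which activates long-chain fatty acids, had 1705 and 1765 CPM in A375 at 24 h against 300 and 296 CPM on drug, and 218 and 237 CPM in 451Lu at 24 h against 467 and 460 CPM on drug. Its line difference was 3.57 ± 0.07 (edgeR adjusted p = 1.3e-22). FASN, the synthase itself, rose 2.18-fold in A375 and fell 1.21-fold in 451Lu (1.40 ± 0.09). ME1, a source of NADPH, rose more in 451Lu (-1.76 ± 0.10).

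Protein folding genes rose in A375 and changed less in 451Lu. Of 16 tested ER chaperone genes, 14 rose and 1 fell in A375, and 6 rose and 4 fell in 451Lu. Line differences were higher in A375 for 13 and lower for 0 (median 0.69). HSPA5, the main chaperone of the endoplasmic reticulum, had 2491 and 2180 CPM in A375 at 24 h against 585 and 580 CPM on drug, and 523 and 509 CPM in 451Lu at 24 h against 403 and 407 CPM on drug (1.65 ± 0.08, edgeR adjusted p = 8.6e-15). Heat shock genes were higher in A375 for 10 of 15 and lower for 2, led by HSP90AB1 (0.98 ± 0.06) and HSPA1A (-0.82 ± 0.12). HSPA1A has a near-identical copy, HSPA1B, and the counting could divide reads between them. In the integrated stress response list, 10 of 20 were higher and 6 lower in A375, against 27.4% and 22.0% of all genes. DDIT3, which encodes CHOP, rose 2.41-fold in A375 and fell 1.49-fold in 451Lu (1.84 ± 0.12), and it overlaps MARS on the opposite strand, which had 318% of its counts.

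Ribosome biogenesis and nuclear respiratory chain genes differed by smaller amounts in the same direction. Among all genes tested, 27.4% were higher in A375 and 22.0% lower. Among 26 ribosome biogenesis genes the change was higher in A375 for 17 and lower for 2 (median 0.40), led by NOLC1 (0.95 ± 0.07) and POLR1A (-0.66 ± 0.09). NOLC1, a nucleolar scaffold, had 458 and 452 CPM in A375 at 24 h against 263 and 247 CPM on drug, and 274 and 281 CPM in 451Lu at 24 h against 302 and 297 CPM on drug. Of 24 nuclear respiratory chain genes the change was higher in A375 for 17 and lower for 0 (median 0.24), led by SDHA (0.69 ± 0.07). Of 24 lysosome and V-ATPase genes it was higher for 14 and lower for 2 (median 0.41). Of 24 cytosolic ribosomal proteins it was higher for 9 and lower for 1, with 14 not called. The median of the ribosomal proteins, 0.08, was close to the 0.02 of all genes. Library scaling factors (TMM) were 1.20 and 1.21 in A375 on drug and 0.99 and 1.01 at 24 h. In 451Lu they were 1.04 and 1.05 on drug and 0.99 and 1.00 at 24 h. These factors moved more in A375, and their part in list medians of this size was not tested.

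Glycolysis and hypoxia genes rose in both lines. Of 27 tested, 24 rose and 0 fell in A375, and 22 rose and 0 fell in 451Lu. By line difference, 12 were higher and 5 lower in A375. VEGFA, the main angiogenic factor, had 430 and 420 CPM in A375 at 24 h against 51.4 and 49.1 CPM on drug, and 514 and 471 CPM in 451Lu at 24 h against 58.3 and 66.0 CPM on drug. Its line difference was not called (0.09, 95% interval -0.09 to 0.28). The line difference of LDHA, lactate dehydrogenase A, was not called either (-0.03, interval -0.17 to 0.11). PFKFB4, a regulator of glycolytic flux, rose 15.8-fold in A375 and 1.40-fold in 451Lu (3.5 ± 0.10). UCN2, which encodes a peptide of the corticotropin-releasing factor family, had 107 and 103 CPM in A375 at 24 h against 1.1 and 1.6 CPM on drug, and 120 and 128 CPM in 451Lu at 24 h against 95.8 and 103 CPM on drug (5.97 ± 0.15). UCN2 and PFKFB4 share exon positions on the same strand, so their reads cannot be fully told apart.

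CDKN1A, which encodes the CDK inhibitor p21, had 446 and 428 CPM in A375 at 24 h against 148 and 152 CPM on drug, and 143 and 121 CPM in 451Lu at 24 h against 3.07 and 2.5 CPM on drug. CDKN1A rose 2.92-fold in A375 and 47.8-fold in 451Lu, and 451Lu at 24 h lay just under the on-drug level of A375. The line difference was -4.03 ± 0.17 (edgeR adjusted p = 2.0e-16). CDK2, the kinase that drives entry into S phase, had 292 and 285 CPM in A375 at 24 h against 132 and 140 CPM on drug, and 71.5 and 91.5 CPM in 451Lu at 24 h against 494 and 511 CPM on drug. CDK2 rose 2.13-fold in A375 and fell 6.19-fold in 451Lu (3.72 ± 0.11, edgeR adjusted p = 5.5e-19).

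CDK2 overlaps exons of PMEL, a pigment gene on the opposite strand with 1146% of its counts. PMEL fell 2.89-fold in A375 and 4.65-fold in 451Lu, and without the strand setting its part in the CDK2 values was not tested. CCND1, which encodes cyclin D1, had 298 and 294 CPM in A375 at 24 h against 31.0 and 27.9 CPM on drug, and 3297 and 3009 CPM in 451Lu at 24 h against 532 and 540 CPM on drug. CCND1 rose 10-fold in A375 and 5.88-fold in 451Lu, and the line difference was 0.77 ± 0.08 (edgeR adjusted p = 7.8e-09).

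Of 28 tested genes of DNA replication, 10 rose and 15 fell in A375, and 3 rose and 21 fell in 451Lu. The change was higher in A375 for 14 and lower for 5 (median 0.23). MCM6, a helicase subunit, rose 1.37-fold in A375 and fell 1.42-fold in 451Lu (0.96 ± 0.07), and RRM2, a ribonucleotide reductase subunit, rose more in 451Lu (-0.85 ± 0.08). Of 28 genes of G2 and mitosis the change was higher in A375 for 7 and lower for 6, shares close to those of all genes, led by AURKB (1.40 ± 0.13) and KIF23 (-0.67 ± 0.09). Without A375 replicate 1 on drug, or without 451Lu replicate 1 at 24 h, 4 were higher.

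Regulators of cell death split between the lines. Of 15 tested BCL2 family genes the change was higher in A375 for 6 and lower for 6, against 27.4% and 22.0% of all genes. MCL1, a survival factor, had 2366 and 2312 CPM in A375 at 24 h against 203 and 205 CPM on drug, and 463 and 479 CPM in 451Lu at 24 h against 152 CPM in both on-drug libraries. MCL1 rose 11.5-fold in A375 and 3.09-fold in 451Lu (1.89 ± 0.07, edgeR adjusted p = 6.9e-18). PMAIP1, which encodes the MCL1 antagonist NOXA, had 26.5 and 28.4 CPM in A375 at 24 h against 20.4 and 22.2 CPM on drug, and 218 and 220 CPM in 451Lu at 24 h against 31.4 and 30.7 CPM on drug (-2.46 ± 0.12). BMF, another death-promoting member, had 3.02 and 2.62 CPM in A375 at 24 h against 21.8 and 18.5 CPM on drug, and 8.33 and 8.06 CPM in 451Lu at 24 h against 2.04 and 3.77 CPM on drug (-4.29 ± 0.31). BMF fell in A375 and rose in 451Lu. BBC3, which encodes PUMA, did the reverse (1.84 ± 0.24). Among 19 tested p53 targets the change was higher in A375 for 4 and lower for 8, against the same shares of all genes. The leading members were GADD45A (1.13 ± 0.13) and PHLDA3 (-2.16 ± 0.23).

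Interferon response genes gave more differences lower than higher in A375. Of 26 listed, 24 were tested: 3 rose and 10 fell in A375, and 13 rose and 4 fell in 451Lu. The change was higher in A375 for 6 and lower for 9 (median -0.81), against 27.4% and 22.0% of all genes. The share higher in A375 was thus close to that of all genes. IFIT2, an antiviral protein, had 0.664 and 1.06 CPM in A375 at 24 h against 3.43 and 4.29 CPM on drug, and 70.4 and 71.0 CPM in 451Lu at 24 h against 12.7 and 10.6 CPM on drug. IFIT2 fell in A375 and rose in 451Lu (-4.79 ± 0.27, edgeR adjusted p = 8.1e-14), and it overlaps LIPA on the opposite strand, which had 409% of its counts. Its relatives IFIT1 (-5.43 ± 0.38) and IFIT3 (-3.29 ± 0.18) had the same pattern of a fall in A375 and a rise in 451Lu. IRF7, a factor that amplifies interferon signals, rose 6.90-fold in A375 and 1.32-fold in 451Lu (2.38 ± 0.24).

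MHC class I genes, which present peptides to T cells and often respond to interferon, differed the other way. Of 12 tested, 10 rose and 0 fell in A375, and 4 rose and 3 fell in 451Lu. By line difference, 10 were higher and 0 lower in A375 (median 0.46).

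Several other genes stood at the extremes by the naming rule. RAC2, a small GTPase, had 18.0 and 15.1 CPM in A375 at 24 h against 0.055 and 0 CPM on drug, and 167 and 159 CPM in 451Lu at 24 h against 24.5 and 24.1 CPM on drug (5.98 ± 0.63). The on-drug libraries of A375 held 1 count in all, and the ratio of 565.5 is known only roughly, with a 95% counting interval of 101 to 22380. KCNN4, a calcium-activated potassium channel, had 8.27 and 6.39 CPM in A375 at 24 h against 0.442 and 0.449 CPM on drug, and 12.1 and 8.32 CPM in 451Lu at 24 h and 0 counts on drug. It was at least 111-fold higher in 451Lu at 24 h than on drug, against the floor of 3 counts over the group. IL4R, the interleukin 4 receptor, had 18.2 and 18.1 CPM in A375 at 24 h against 16 and 10.9 CPM on drug, and 11.7 and 8.24 CPM in 451Lu at 24 h against 0.341 and 0.174 CPM on drug (-4.86 ± 0.46). COL15A1, a collagen, fell 26.9-fold in A375 and rose 3.48-fold in 451Lu (-6.55 ± 0.56). Its A375 libraries held 2 and 2 counts at 24 h against 88 and 47 on drug, so the size of the fall is uncertain. MTSS1, an actin-binding protein, rose in both lines and more in 451Lu (-4.82 ± 0.49), where the on-drug libraries held 3 counts and the ratio was 50.7 (95% counting interval 17.0 to 249). It overlaps NDUFB9 on the opposite strand, which had 3669% of its counts.

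Among genes called in opposite directions, POU3F1 had the largest positive line difference by the naming rule. POU3F1, a POU domain transcription factor, had 16.1 and 14.3 CPM in A375 at 24 h against 2.98 and 2.24 CPM on drug, and 1.37 and 1.63 CPM in 451Lu at 24 h against 13.1 and 13.5 CPM on drug (5.68 ± 0.25, edgeR adjusted p = 4.5e-16). The lines exchanged levels at 24 h. EPHA2, an ephrin receptor, rose 2.78-fold in A375 and fell 7.27-fold in 451Lu (4.34 ± 0.37). LPAR6, a receptor of lysophosphatidic acid, rose 7.46-fold in A375 and fell 1.87-fold in 451Lu (3.80 ± 0.28). ARHGAP20 (4.05 ± 0.28), SCUBE2 (4.0 ± 0.26) and KREMEN2 (3.85 ± 0.42) also rose in A375 and fell in 451Lu, with KREMEN2 overlapping PKMYT1 on the opposite strand (1079% of its counts). CLMN (-4.33 ± 0.37) and PHACTR2 (-4.32 ± 0.44) fell in A375 and rose in 451Lu.

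Many genes changed alike in both lines. With at least 100 counts in each line, 11091 genes were left, and the 95% interval of the line difference lay within 0.5 log2 units of 0 for 963 that rose in both and 639 that fell in both. Over all genes tested these were 967 (6.25%) and 639 (4.13%). SLC20A1, a phosphate transporter, had 2658 and 2590 CPM in A375 at 24 h against 147 and 144 CPM on drug, and 1752 and 1624 CPM in 451Lu at 24 h against 115 and 119 CPM on drug. It rose 18.1-fold in A375 and 14.4-fold in 451Lu, and its small line difference was called (0.33, interval 0.17 to 0.48). ITPRIP rose 10.5-fold in A375 and 10-fold in 451Lu (0.07, interval -0.28 to 0.41).

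Falls of like size were found for PIK3R3, a PI3 kinase subunit, which fell 5.80-fold in A375 and 5.23-fold in 451Lu (-0.15, interval -0.37 to 0.07). SOX6, a transcription factor, fell 6.10-fold in A375 and 5.52-fold in 451Lu (-0.14, interval -0.46 to 0.17), and it overlaps C11orf58 on the opposite strand (246% of its counts). ID3, an inhibitor of helix-loop-helix factors, differed by 0.07 (interval -0.27 to 0.40) and PLEKHH1 by 0.00 (interval -0.22 to 0.23). PLEKHH1 overlaps PIGH on the opposite strand (51.4% of its counts). DKK1 and FST, antagonists of WNT and activin, also met the rule for genes that rose alike, but they rest on 11 and 6 counts in 451Lu at 24 h and 0 on drug, so their narrow intervals carry no information on likeness.

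The other times place the 24 h values within each line's own course. They share on-drug libraries with the 24 h changes and are given side by side only. DUSP6 had log2 changes of 3.53, 2.25 and 2.41 at 6, 24 and 48 h in A375, and 4.48, 5.70 and 5.80 at 24, 72 and 120 h in 451Lu. CXCL8 had 6.08, 8.28 and 8.88 in A375, and 3.97, 5.42 and 6.98 in 451Lu, so 451Lu stayed under the A375 change of 24 h at every time read. INSIG1 had 3.69, 4.44 and 3.78 in A375, and 0.23, 1.90 and 1.33 in 451Lu. Its change in 451Lu was thus higher at 72 h than at 24 h. SOX10 had -0.07, -0.01 and -0.16 in A375, and -2.10, -1.41 and -1.14 in 451Lu. DCT had -0.88, -2.22 and -4.97 in A375, and -4.44, -6.74 and -9.18 in 451Lu, and at 48 h in A375 it had passed the 24 h value of 451Lu. CDKN1A had 1.86, 1.55 and 1.5 in A375, and 5.58, 6.92 and 7.74 in 451Lu. IFIT2 had -3.61, -2.19 and -2.27 in A375, and 2.61, 1.88 and 0.41 in 451Lu.

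**Figure D5:**
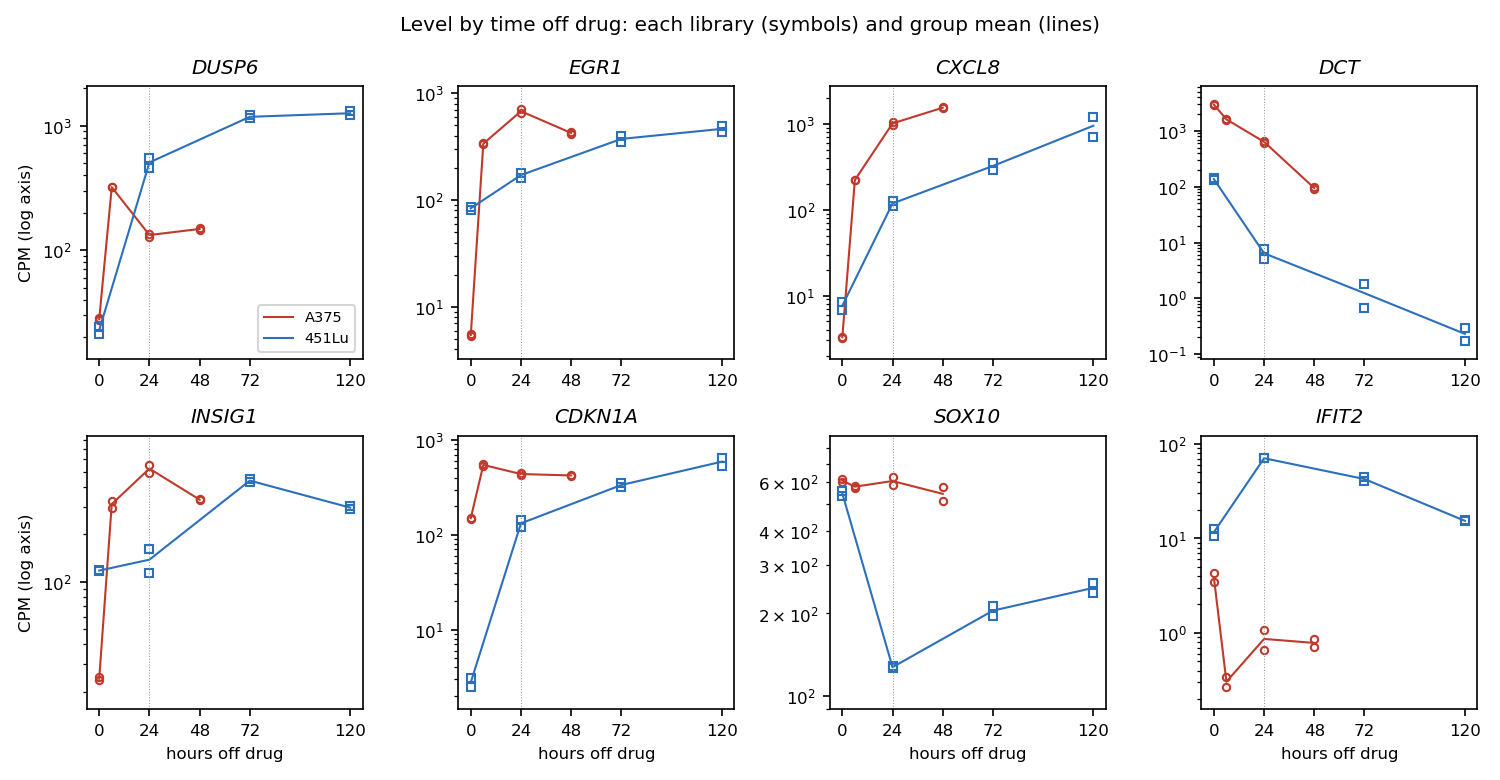
Level of 8 genes in CPM (log axis) against hours off drug, with 0 h for cells on drug, in A375 (red circles, to 48 h) and 451Lu (blue squares, to 120 h); symbols are single libraries, lines join group means, and the dotted line marks 24 h. INSIG1 in 451Lu is higher at 72 h than at 24 h, DCT falls through all times in both lines, and SOX10 stays flat in A375.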

How the data were processed

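RNA sequencing gave 16 libraries of human melanoma cells in 8 groups of 2, and 8 libraries in 4 groups entered the comparison described here. The authors deposited raw read counts per gene, 1 column per library, unpooled, for 30813 genes. The submitters' processing notes name TopHat2 2.1.0, Bowtie 1.0.0 and build GRCh38. The read counter, its annotation and its use of strand are not stated (not given in the sources used here), so genes whose exons overlap are uncertain, and the exon overlaps given come from GENCODE annotation.

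All 16 libraries were fitted in edgeR 4.0.16 (R 4.3.3) with 8 groups, TMM scaling and filterByExpr (minimum count 10, minimum total 15), which left 15481 genes and 8 residual degrees of freedom. The line difference and each line's 24 h change were contrasts of that quasi-likelihood fit, with Benjamini-Hochberg adjustment over all genes tested and a threshold of 0.05. SE is the log2 value over the root of F, and for genes with a few counts in a line it is unreliable. CPM uses TMM-scaled totals and is compared within a gene only. Counting intervals and floors (3 counts over a group) cover counting error only. The procedure was tested on simulated data in which few genes changed, which does not cover changes as broad as those called here.

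Members and lists were chosen with earlier results of these data known. Named genes were the 6 most extreme line differences in each direction with at least 100 counts in each line, the 6 most extreme opposite calls in each direction with the same count minimum, the member of each list with the smallest p in each direction, 16 genes of known interest and, among genes called the same way in both lines whose 95% interval of the line difference lay within 0.5 of 0, the 4 with the largest mean rise and the 4 with the largest mean fall. No gene without counts in 1 line met the rule for such genes. Promoter windows came from a RefSeq table, and only genes found there entered the motif counts. Alternatives were RLE size factors, no filter, DESeq2 1.42.0, limma-voom (limma 3.58.1), the 8 libraries alone, a replicate block, a test against a 1.5-fold change and leaving out each library. Some genes are not reported here by name, although they stay in the fit and in the counts.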

Additional observations from a re-analysis of the deposited data

Results flagged for a closer look

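Genes whose changes had opposite signs in the lines, both called, with a called line difference, were singled out because the direction of the 24 h change differed. There were 858 that rose in A375 and fell in 451Lu, and 625 that fell in A375 and rose in 451Lu. Among those that rose in A375 and fell in 451Lu, the line difference was 5.68 for POU3F1, 4.34 for EPHA2, 4.05 for ARHGAP20, 4.0 for SCUBE2, 3.85 for KREMEN2 and 3.80 for LPAR6. Among those that fell in A375 and rose in 451Lu, it was -8.76 for SPP1, -6.55 for COL15A1, -4.79 for IFIT2, -4.33 for CLMN, -4.32 for PHACTR2 and -4.29 for BMF. The value of COL15A1 rests on 2 and 2 counts in A375 at 24 h. The test of each was the edgeR contrast over 15481 genes. With 2 libraries in a group, no single library could be tested as standing apart.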

How the results depend on the processing

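Across the alternatives other than the test against a 1.5-fold change, 6430 (DESeq2) to 8075 (limma-voom) genes had a called line difference, against 7642. Leaving out 1 library gave 6712 to 7153, where the lone library is assumed to vary like the other groups. No gene called in both an alternative and the fit reported here changed sign, and 52.14 to 56.57% of calls were higher in A375, against 55.48%. Against a 1.5-fold change, 2722 genes were called (1442 higher and 1280 lower in A375). The same test called 4167 genes in A375 (2079 up, 2088 down) and 2517 in 451Lu (1288 up, 1229 down). It asks for a larger change, so fewer calls follow from its construction. Replicate numbers did not pair the samples of the groups compared, where the correlation of deviations between 24 h and on drug was -0.047 in A375 and -0.078 in 451Lu. Over all 12 pairs of groups within a line it ran from -0.31 to 0.40, and the 3 pairs of 451Lu groups off drug came to 0.23, 0.30 and 0.40. With a replicate block 7764 genes were called, 7585 of them shared with the fit without it. Of 104 named genes, 7 lost or gained a call outside the 1.5-fold test (AXL, CDKN1C, FOSL1, LIF, LUM, MITF and RPL7A). Another 5 changed sign without being called under any alternative. PLEKHH1 came to -0.019 with RLE factors, -0.0043 without a filter, -0.017 with DESeq2, -0.035 with the 8 libraries alone, -0.0019 with the block, -0.0016 with limma-voom and -0.084 to 0.090 on leaving out 1 library. DKK1 came to 1.26 with limma-voom, 0.49 with DESeq2, -0.17 with the 8 libraries alone, -0.020 with the block and -0.23 to 0.21 on leaving out 1 library. FST came to 1.53 with limma-voom, 0.34 with DESeq2, -0.011 without a filter, -0.21 with the 8 libraries alone, and -0.29 to 0.45 on leaving out 1 library. Leaving out 1 library gave ITPRIP -0.096 to 0.23 and ID3 -0.15 to 0.22. The cause was not tested. Counts of called list members in 1 direction moved by over 1.5 times outside the 1.5-fold test in 18 cases, mostly counts of 3 or fewer. For cytokines, 3 higher became 5 with DESeq2. The 2 lower became 4 with limma-voom but 1 with the 8 libraries alone, and leaving out single libraries also lowered this count in several cases. For ER chaperones, 0 lower became 1 with RLE factors, and for nuclear respiratory chain genes 0 lower became 1 with the 8 libraries alone. Groups of 2 libraries limit the precision, and low counts in a line leave values such as those of AREG, IL11 and ARC uncertain in size.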

Other observations

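Some gene groups fell in no comparison above. Of 13 mitochondrially encoded genes, 0 rose and 9 fell in A375, and 0 rose and 11 fell in 451Lu. Their line difference was higher in A375 for 4 and lower for 3, but 1 was higher with DESeq2, and 2 were without A375 replicate 1 at 24 h, without A375 replicate 2 on drug or without 451Lu replicate 1 on drug. MT-ND6, the subunit encoded on the light strand, differed most (-1.16 ± 0.10, edgeR adjusted p = 4.6e-10), while MT-ND3 differed by 0.64 ± 0.15. Among 9 D cyclins and kinases, the change was higher in A375 for 3 and lower for 2, CDK6 (-0.91 ± 0.11) and CCND3 (-0.54 ± 0.09). Among 7 CDK inhibitors it was higher for 1 and lower for 3. The single higher one, CDKN1C, had 22 counts in A375 at 24 h and 0 on drug. Its call did not hold in the test against a 1.5-fold change, with the 8 libraries alone or on leaving out several of the single libraries. Of 7 tested markers of other cell types it was higher for 1 (LUM, 0.62 ± 0.17) and lower for 2 (KRT18, -0.61 ± 0.12, and DCN, -3.57 ± 1.34, at under 1 CPM in both lines). Of 10 defining melanoma markers it was higher for 8 and lower for 2.

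Lysosomal genes included the cathepsins CTSL, which rose 10.2-fold in A375 and 6.16-fold in 451Lu (0.73 ± 0.12), and CTSK, which was flat in A375 and fell in 451Lu (1.02 ± 0.14). COL6A3, a collagen chain, rose in both lines, with log2 changes of 7.88 in A375 and 7.06 in 451Lu, and its line difference was not called (0.83, 95% interval -0.71 to 2.36). These genes were chosen after their values were seen.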
